A study of Homo sapiens with 7 samples.

Results

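The 100 genes described here lay lower on every array of SHP2-knockdown cells than on any control array, and by the widest margin of the genes measured. For each gene, the margin, called the gap below, was the lower of its 2 Ctrl shRNA log2 values minus the highest of its 5 SHP2 hairpin log2 values. A gap above 0 means that the groups did not overlap. A gap was computed for 18417 genes, and 1321 of them, or 7.17%, had one above 0, while 1497, or 8.13%, were higher on all 5 SHP2 arrays than on both control arrays. The 100 genes are those of largest gap after PTPN11, the gene of SHP2 itself, was set aside. They were chosen by these measured values, so every difference from Ctrl shRNA below is a description and carries no test.

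RNA came from SUM159, an established human cell line of mesenchymal triple-negative breast cancer (TNBC), and was hybridized to 7 Affymetrix Human Gene 1.0 ST arrays. All cells carried a lentiviral, doxycycline-inducible hairpin and received doxycycline for 15 days in 2D culture. Cells with the hairpin SHP2 sh1 gave 2 arrays, cells with a second hairpin, SHP2 sh2, gave 3 arrays, and cells with the control hairpin Ctrl shRNA gave 2 arrays. No parental or uninduced cells were compared, and the labels do not say whether replicate arrays stem from different cultures, so their spread may be technical. Values are log2 expression after robust multi-array averaging, so a difference of 1 is a doubling of the signal on the linear scale, and the arrays of a group are given in the order of their replicate numbers. A difference between hairpins and control is the mean of the SHP2 sh1 mean and the SHP2 sh2 mean, minus the Ctrl shRNA mean.

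SHP2 is a protein tyrosine phosphatase that passes signals on, in large part to the RAS and ERK kinases, when growth factors bind receptor tyrosine kinases. Among the 100 genes are ligands, receptors and adhesion proteins of the cell surface, histones and other proteins that package, copy and mend DNA, subunits of the transcription machinery, zinc finger factors and enzymes of metabolism. Replication-dependent histone genes are made in S phase, lie in clusters on a few chromosomes, and yield messages that end in a stem-loop in place of a poly(A) tail. Their promoters often hold CCAAT and TATA boxes. Genes of late S phase and mitosis often carry an E2F site or the cell cycle genes homology region (CHR), a short element read by the DREAM and MuvB complexes.

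The targeted gene and the quality of the arrays frame every value that follows. PTPN11 was at 7.90 and 6.93 with SHP2 sh1, 7.96, 7.20 and 7.89 with SHP2 sh2, and 9.53 and 9.18 with Ctrl shRNA, 3.48-fold lower with the hairpins, and its gap of 1.21 would have ranked 5 had it been kept. The replicate 2 array of each SHP2 hairpin stood apart from the rest. Their correlations with the other 5 arrays over all probes ran from 0.886 to 0.965, against 0.981 to 0.992 among those 5, and the pair correlated at 0.972. The set as a whole is therefore also described without these arrays. The mesenchymal markers VIM, CD44, FN1, SPARC and CAV1 ran from 10.5 to 12.9 on SHP2 arrays and from 11.7 to 12.8 on Ctrl shRNA arrays, bright on every array. The epithelial and luminal markers CDH1, EPCAM, ESR1, PGR and ERBB2 were dimmer. They ran from 3.33 to 8.29 on SHP2 arrays and from 2.89 to 7.81 on Ctrl shRNA arrays. Of these, 0 had a difference below 0, and the median difference was 0.37, beside 0.08 over all genes. CDH1 was at 5.16 and 7.42 with SHP2 sh1, 6.20, 7.12 and 5.61 with SHP2 sh2, and 5.32 and 5.19 with Ctrl shRNA. The summed log2 level of 9 blood cell markers ran from 53.4 to 56.5 on SHP2 arrays and from 52.2 to 53.2 on control arrays, and that of 8 endothelial markers from 48.4 to 52.0 on SHP2 arrays and from 46.6 to 48.3 on control arrays. No blood or endothelial marker had a gap above 0. Higher on all 5 SHP2 arrays were 1 of 9 blood and 2 of 8 endothelial markers, beside 8.13% of all genes. Of the 5 mesenchymal markers 1, CAV1, had a gap of 0.16, and 0 were higher on all 5 SHP2 arrays. Of the 5 epithelial and luminal markers 0 had a gap above 0, and 1 was higher on all 5 SHP2 arrays. The part of these shifts in any result was not tested. In bulk RNA, fewer expressing cells and less RNA per cell cannot be told apart.

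Promoter sequence was looked at because the rule did not use it. RefSeq promoters of GRCh38.p14, 300 bases around each annotated start, were found for 89 of the 100 genes and for 14239 of all genes. The 4 histone genes shown first lie in the chromosome 6 cluster. Their CCAAT boxes (CCAAT, or ATTGG on the other strand) and any letters of a TATA box (TATAAA or TTTATA) are in capitals. They are H2BC14 (chr6:27814772-27815071, plus strand), H2AC15 (chr6:27838326-27838625, minus strand), H2AC8 (chr6:26216671-26216970, plus strand) and H1-1 (chr6:26017738-26018037, minus strand), each written 5′ to 3′ along its gene.
H2BC14: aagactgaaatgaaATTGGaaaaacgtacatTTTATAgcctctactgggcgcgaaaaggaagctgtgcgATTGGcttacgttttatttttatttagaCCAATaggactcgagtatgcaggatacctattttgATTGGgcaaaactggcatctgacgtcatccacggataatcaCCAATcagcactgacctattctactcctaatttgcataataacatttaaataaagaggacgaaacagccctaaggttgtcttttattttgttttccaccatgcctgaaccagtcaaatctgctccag
H2AC15: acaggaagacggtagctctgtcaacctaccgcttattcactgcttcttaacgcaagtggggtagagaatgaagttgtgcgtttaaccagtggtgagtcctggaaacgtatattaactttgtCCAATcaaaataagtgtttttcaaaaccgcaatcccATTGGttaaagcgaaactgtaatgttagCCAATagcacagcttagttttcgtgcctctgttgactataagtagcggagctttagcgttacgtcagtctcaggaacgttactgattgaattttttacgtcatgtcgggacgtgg
H2AC8: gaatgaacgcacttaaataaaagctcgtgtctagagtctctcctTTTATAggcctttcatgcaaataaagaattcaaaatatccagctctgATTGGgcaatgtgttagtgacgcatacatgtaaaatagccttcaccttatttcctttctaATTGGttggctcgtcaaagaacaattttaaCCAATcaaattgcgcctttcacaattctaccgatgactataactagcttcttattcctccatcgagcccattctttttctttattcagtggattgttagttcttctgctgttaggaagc
H1-1: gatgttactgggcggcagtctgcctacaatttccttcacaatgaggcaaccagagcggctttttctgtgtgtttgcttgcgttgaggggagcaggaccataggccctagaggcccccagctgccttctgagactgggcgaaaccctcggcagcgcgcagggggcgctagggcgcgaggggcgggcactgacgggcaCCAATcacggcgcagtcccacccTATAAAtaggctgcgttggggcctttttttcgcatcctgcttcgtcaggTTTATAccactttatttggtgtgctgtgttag
Counted on both strands, these windows hold 5 CCAAT boxes at H2BC14, 3 each at H2AC15 and H2AC8, and 1 at H1-1. These 4 are the only histone promoters of the 100 genes in which CCAAT was found. The promoters of the histone genes H4C14 and H4C15, also among the 100 and not printed, hold neither CCAAT nor the TATA box letters.

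KIF15 (chr3:44761544-44761843, plus strand), a mitotic kinesin, NUCKS1 (chr1:205750133-205750432, minus strand), a chromatin protein, and SMC4 (chr3:160399400-160399699, plus strand), a condensin subunit, are shown for the cell cycle elements. Here the CHR letters (TTTGAA, or TTCAAA on the other strand) and the E2F site (TTTGGCGC, or GCGCCAAA on the other strand) are in capitals.
KIF15: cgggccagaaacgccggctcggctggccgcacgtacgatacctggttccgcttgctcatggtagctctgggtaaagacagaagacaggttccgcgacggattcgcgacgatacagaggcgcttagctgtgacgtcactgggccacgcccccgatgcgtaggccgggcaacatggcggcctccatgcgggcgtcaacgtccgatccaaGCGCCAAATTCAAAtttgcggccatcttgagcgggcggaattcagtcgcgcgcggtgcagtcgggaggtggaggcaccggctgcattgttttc
NUCKS1: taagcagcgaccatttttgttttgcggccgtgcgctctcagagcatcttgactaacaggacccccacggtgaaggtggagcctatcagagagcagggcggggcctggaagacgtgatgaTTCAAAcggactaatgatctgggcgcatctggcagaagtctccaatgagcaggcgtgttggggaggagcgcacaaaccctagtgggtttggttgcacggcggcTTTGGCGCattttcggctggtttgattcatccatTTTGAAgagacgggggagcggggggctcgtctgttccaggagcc
SMC4: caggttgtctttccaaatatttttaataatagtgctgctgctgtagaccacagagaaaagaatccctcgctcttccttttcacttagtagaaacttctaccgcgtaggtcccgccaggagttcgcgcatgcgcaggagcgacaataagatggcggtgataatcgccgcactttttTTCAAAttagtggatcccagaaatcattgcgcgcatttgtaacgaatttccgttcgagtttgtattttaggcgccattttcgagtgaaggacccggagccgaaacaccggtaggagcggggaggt
In KIF15 the E2F letters run directly into the CHR letters, whereas NUCKS1 holds them apart and SMC4 holds the CHR letters only.

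Over the set, the CHR letters were present in 19 of 89 promoters (21.3%), against 11.9% of all promoters, and the E2F site in 3 (3.37%, KIF15, NUCKS1 and KLHL42), against 0.864%. Genes of other roles, such as FOXP2, PTPN22, TENM2 and COL24A1, were among the 19. Of the genes grouped below under mitosis, KIF15, SMC4 and LMNB2 held the CHR letters, but ANAPC4, NUP133 and SSX2IP did not. The composite site of ATF4 and C/EBP (TGATGNAA) was present in 5.62% of them and 2.54% of all promoters. CCAAT was less frequent in the 100 genes, at 27.0% against 36.3%. The ETS core (CCGGAA) stood at 22.5% and 23.2%, the TATA box at 8.99% and 9.0%, the interferon-stimulated response element core at 4.49% and 3.04%, the GAS site (TTCNNNGAA) at 5.62% and 7.07%, and the AP-1 site (TGANTCA) at 4.49% and 5.58%, always with the 100 genes first. In the same order, the hypoxia core (ACGTG) stood at 22.5% and 24%, the MYC E-box (CACGTG), which contains that core, at 6.74% and 8.88%, and the TEAD site (ACATTCC) at 3.37% and 2.47%. The median GC content was 63.3% in the 100 genes and 63.0% in all promoters. All motifs were searched on both strands. A match says that the letters are in the window and not that a factor binds there, and no test was made of these shares.

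Across the 100 genes, the gap ran from 0.37 to 1.69 with a median of 0.47. The difference between hairpins and control ran from -3.27 to -0.54 with a median of -1.01, beside a median of 0.08 over all genes. It exceeded 1 in 52 of the 100 genes and 2 in 6, beside 1.95% and 0.0489% of all genes. By hairpin, the median was -0.94 with SHP2 sh1 and -1.05 with SHP2 sh2. By array, the median difference from the control mean was -0.61 and -1.23 for SHP2 sh1 replicates 1 and 2, and -0.75, -1.54 and -0.70 for SHP2 sh2 replicates 1, 2 and 3, while over all genes it lay between -0.02 and 0.18. The arrays that stood apart thus gave the deepest values, and SHP2 sh1 replicate 1 the shallowest.

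**Figure D1:**
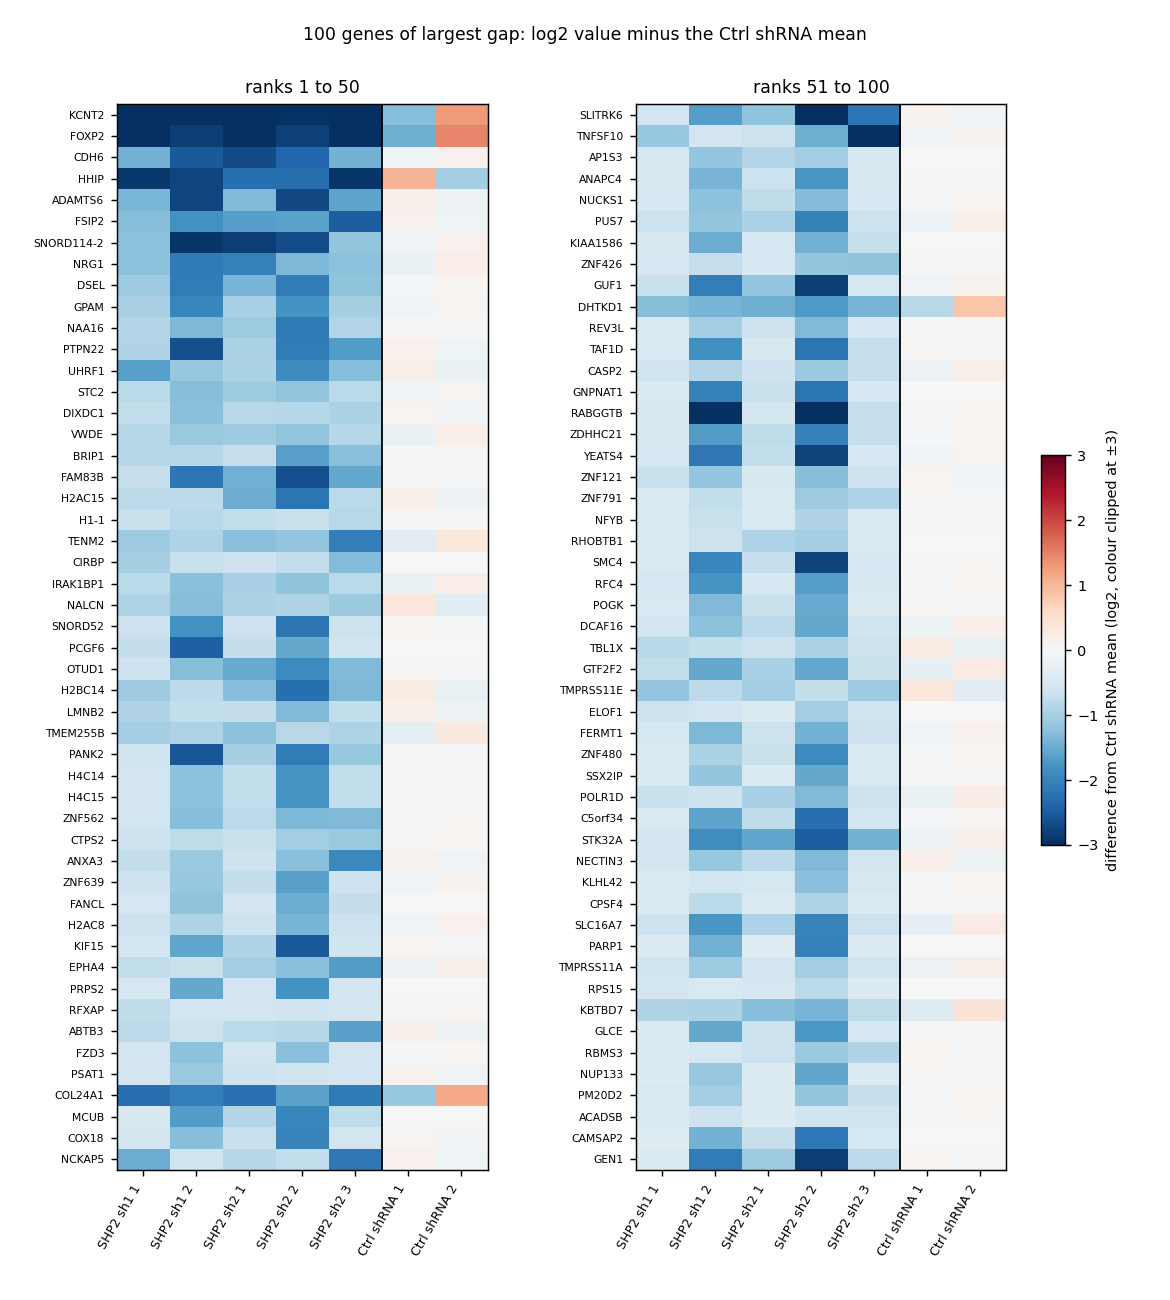
Log2 difference of each of the 100 genes (rows, by rank of gap) from its Ctrl shRNA mean on the 5 SHP2 arrays (left columns) and the 2 Ctrl shRNA arrays (right columns). All 5 SHP2 columns lie below 0, and the replicate 2 columns of both hairpins are the deepest, with medians of -1.23 and -1.54.

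The widest gap belonged to KCNT2, a subunit of a sodium-activated potassium channel. Its log2 values were 5.53 and 5.52 with SHP2 sh1, 4.82, 5.66 and 5.01 with SHP2 sh2, and 7.34 and 9.90 with Ctrl shRNA, a 9.68-fold lower mean with the hairpins. FOXP2, a forkhead transcription factor best known for its part in speech, was at 4.11 and 4.70 with SHP2 sh1, 4.06, 4.71 and 4.27 with SHP2 sh2, and 6.07 and 8.98 with Ctrl shRNA. Neither gene exceeded 5.66 on any of the 5 SHP2 arrays, but their controls differed from each other by more than 1, which held for 5 of the 100 genes (KCNT2, FOXP2, HHIP, COL24A1 and DHTKD1) and for 0.510% of all genes. HHIP, which binds and sequesters hedgehog ligands, had 5.64 and 5.78 with SHP2 sh1, 6.26, 6.26 and 5.62 with SHP2 sh2, and 9.55 and 7.52 with Ctrl shRNA. COL24A1, a fibrillar collagen chain, had 5.57 and 5.77 with SHP2 sh1, 5.58, 6.22 and 5.71 with SHP2 sh2, and 6.69 and 8.95 with Ctrl shRNA. For these genes the size of the difference rests on which control is used, although the groups stay apart with either.

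CDH6, a cadherin of kidney and neural crest, showed no such spread between controls. It was at 7.46 and 6.37 with SHP2 sh1, 6.20, 6.51 and 7.46 with SHP2 sh2, and 8.76 and 9.02 with Ctrl shRNA, 4.19-fold lower with the hairpins. ADAMTS6, a secreted metalloprotease of the matrix, was at 7.23 and 5.85 with SHP2 sh1, 7.27, 5.89 and 7.02 with SHP2 sh2, and 8.75 and 8.45 with Ctrl shRNA. For ADAMTS6 the replicate 2 mean differed by -1.30 from that of the other SHP2 arrays, whereas for CDH6 SHP2 sh2 replicate 1 was lower still than they were. FSIP2, a protein of the sperm tail sheath, was at 5.39 and 4.86 with SHP2 sh1, 5.02, 5.07 and 4.20 with SHP2 sh2, and 6.79 and 6.56 with Ctrl shRNA, with its lowest value on SHP2 sh2 replicate 3. SNORD114-2, a C/D box small nucleolar RNA (snoRNA) of the imprinted cluster on chromosome 14, was at 5.26 and 3.59 with SHP2 sh1, 3.68, 3.85 and 5.31 with SHP2 sh2, and 6.36 and 6.64 with Ctrl shRNA. Its 5 SHP2 values fell into a high pair, both near 5.3, and 3 low ones, and the split followed neither the hairpin nor the replicate number.

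Of the signalling genes, NRG1, a ligand of ERBB3 and ERBB4, was at 6.85 and 5.96 with SHP2 sh1, 6.07, 6.74 and 6.85 with SHP2 sh2, and 7.89 and 8.30 with Ctrl shRNA, 3.06-fold lower with the hairpins. PTPN22, a tyrosine phosphatase best known from lymphocytes, was at 5.75 and 4.0 with SHP2 sh1, 5.69, 4.55 and 4.97 with SHP2 sh2, and 6.77 and 6.52 with Ctrl shRNA. The controls of PTPN22 were close to each other, and its lowest SHP2 values were on the replicate 2 arrays. FAM83B, an adaptor that couples EGF receptor and RAF signalling, had 8.25 and 6.77 with SHP2 sh1, 7.50, 6.29 and 7.41 with SHP2 sh2, and 8.97 and 8.91 with Ctrl shRNA, a mean 3.14-fold lower with the hairpins. STC2, a secreted glycoprotein induced by endoplasmic reticulum stress, had 6.60 and 6.13 with SHP2 sh1, 6.35, 6.23 and 6.60 with SHP2 sh2, and 7.34 and 7.49 with Ctrl shRNA. DIXDC1, a component of Wnt signalling, had 6.93 and 6.42 with SHP2 sh1, 6.86, 6.83 and 6.72 with SHP2 sh2, and 7.76 and 7.60 with Ctrl shRNA. STC2 and DIXDC1 varied little among SHP2 arrays, with ranges of 0.47 and 0.51.

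Among the enzymes and other secreted proteins of the first 20 ranks, DSEL, a relative of dermatan sulfate epimerase, was at 6.81 and 5.80 with SHP2 sh1, 6.5, 5.81 and 6.70 with SHP2 sh2, and 7.83 and 7.96 with Ctrl shRNA. GPAM, the mitochondrial acyltransferase that starts triglyceride synthesis, was at 7.67 and 6.68 with SHP2 sh1, 7.67, 6.85 and 7.64 with SHP2 sh2, and 8.55 and 8.74 with Ctrl shRNA. NAA16, an auxiliary subunit of the N-terminal acetyltransferase complex, was at 7.20 and 6.75 with SHP2 sh1, 7.01, 5.97 and 7.20 with SHP2 sh2, and 8.05 and 8.12 with Ctrl shRNA. For all 3 genes, the SHP2 replicate 2 arrays held the lowest values. VWDE, a secreted protein with von Willebrand factor D and EGF domains, was at 6.95 and 6.69 with SHP2 sh1, 6.73, 6.62 and 6.94 with SHP2 sh2, and 7.61 and 8.0 with Ctrl shRNA, and its SHP2 values spanned 0.33.

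UHRF1, which reads hemimethylated DNA at the replication fork and recruits DNMT1, was at 7.53 and 8.01 with SHP2 sh1, 8.20, 7.27 and 7.87 with SHP2 sh2, and 9.35 and 8.96 with Ctrl shRNA, 2.60-fold lower with the hairpins. BRIP1, a helicase of the Fanconi anaemia pathway, was at 7.17 and 7.18 with SHP2 sh1, 7.34, 6.40 and 6.77 with SHP2 sh2, and 8.0 and 8.07 with Ctrl shRNA. In neither gene were both replicate 2 arrays below the other SHP2 arrays, since SHP2 sh1 replicate 2 was among the higher SHP2 values. The histones H2AC15 and H1-1, whose promoters are printed above, complete the first 20 ranks and are described with the other histones.

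**Figure D2:**
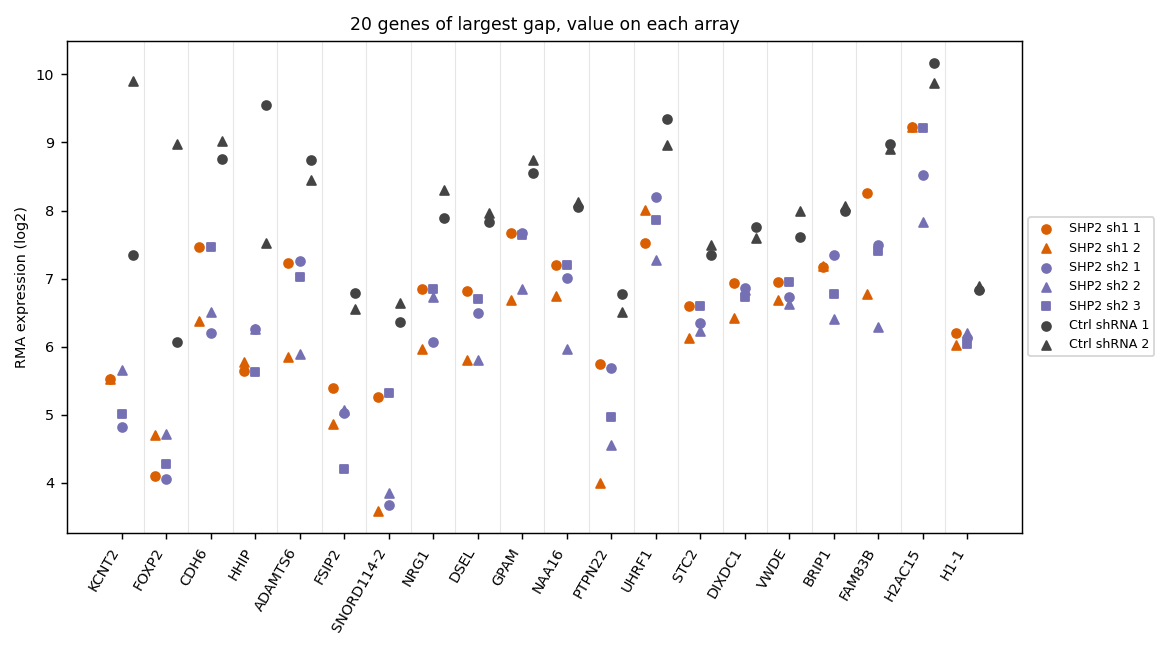
Log2 expression of the 20 genes of widest gap on each array, with SHP2 sh1 and SHP2 sh2 arrays beside Ctrl shRNA arrays. KCNT2, FOXP2 and HHIP have widely spaced controls, while NAA16, H1-1 and FAM83B have controls that nearly coincide.

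H2AC15 was at 9.23 and 9.23 with SHP2 sh1, 8.53, 7.83 and 9.21 with SHP2 sh2, and 10.16 and 9.87 with Ctrl shRNA, and H2BC14, the next measured gene along chromosome 6, was at 9.66 and 9.95 with SHP2 sh1, 9.45, 8.48 and 9.39 with SHP2 sh2, and 10.95 and 10.53 with Ctrl shRNA. Their SHP2 sh2 means were below their SHP2 sh1 means by 0.71 and 0.70, and both were lowest on SHP2 sh2 replicate 2. H1-1, a linker histone, was at 6.20 and 6.03 with SHP2 sh1, 6.13, 6.20 and 6.04 with SHP2 sh2, and 6.84 and 6.89 with Ctrl shRNA, and its SHP2 values covered only 0.17, the narrowest range of the 100 genes. H2AC8 was at 5.74 and 5.47 with SHP2 sh1, 5.74, 4.99 and 5.74 with SHP2 sh2, and 6.26 and 6.52 with Ctrl shRNA. H4C14 and H4C15 had identical values on every array and so count as 1 profile, at 10.27 and 9.63 with SHP2 sh1, 10.12, 9.08 and 10.12 with SHP2 sh2, and 10.89 and 10.82 with Ctrl shRNA. H4 genes encode the same protein and histone genes are close copies of each other, so that a probe's signal cannot be assigned to 1 of them with certainty.

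The 6 histones belong to a list of 58 measured replication-dependent histone genes, put together after their values had been seen. Of these, 17 (29.3%) had a gap above 0, beside 7.17% of all genes, and 0 were higher on all 5 SHP2 arrays. The list's median difference was -0.31, against 0.08 over all genes, and 48 of 58 genes were below 0. Without the replicate 2 arrays 20 of the 58 did not overlap, and without SHP2 sh1 replicate 1 again 17, where all genes stood at 8.81% and 15.0%. Leaving out SHP2 arrays cannot lower such a count. Histones below the rank of the 100 with a gap above 0 included H2AC6 (gap 0.28), H4C2 (0.30) and H4C5 (0.20).

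Genes of DNA replication and repair were BRIP1, RFC4, PARP1, FANCL, REV3L and GEN1, with differences from -1.41 to -0.79. RFC4, a subunit of the clamp loader, was at 8.24 and 6.98 with SHP2 sh1, 8.24, 7.10 and 8.29 with SHP2 sh2, and 8.70 and 8.81 with Ctrl shRNA. PARP1, which makes poly(ADP-ribose) at DNA breaks, was at 8.91 and 7.87 with SHP2 sh1, 8.92, 7.29 and 8.91 with SHP2 sh2, and 9.33 and 9.31 with Ctrl shRNA. GEN1, a resolvase of Holliday junctions, was at 8.43 and 6.75 with SHP2 sh1, 7.79, 6.03 and 8.07 with SHP2 sh2, and 8.90 and 8.80 with Ctrl shRNA. In these 3 genes, both replicate 2 arrays were more than 1 below the other SHP2 arrays on average, and the groups differed by only 0.40 to 0.76 on the other 3 arrays. FANCL is the ubiquitin ligase of the Fanconi anaemia pathway and REV3L the catalytic subunit of DNA polymerase zeta. In the list of double-strand break repair genes, 10 of 20 measured genes (50.0%) had a gap above 0, beside 7.17% of all genes, none of them among the 100, and 0 were higher on all 5 SHP2 arrays. XRCC2, MRE11 and RAD50 led that list with gaps of 0.34, 0.29 and 0.23. Among G1/S genes 9 of 30 (30.0%) had a gap above 0, with UHRF1 and RFC4 the members of the 100, and among G2/M genes 7 of 39 (17.9%) had one, with none in the 100. These 3 counts were 10, 9 and 7 again without the replicate 2 arrays of both hairpins, where all genes stood at 8.81%. Leaving out SHP2 arrays cannot narrow a gap, so these counts could not have fallen.

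Mitosis, the cytoskeleton and the nuclear envelope were represented by KIF15, SMC4, ANAPC4, LMNB2, NUP133, SSX2IP and CAMSAP2. SMC4 was at 9.48 and 7.95 with SHP2 sh1, 9.23, 7.13 and 9.39 with SHP2 sh2, and 9.89 and 9.94 with Ctrl shRNA. KIF15 was at 6.86 and 5.89 with SHP2 sh1, 6.54, 4.93 and 6.85 with SHP2 sh2, and 7.51 and 7.37 with Ctrl shRNA. In both genes the replicate 2 arrays were lowest, with SHP2 sh2 replicate 2 deeper than SHP2 sh1 replicate 2. LMNB2, which encodes lamin B2, was at 9.14 and 9.30 with SHP2 sh1, 9.32, 8.70 and 9.30 with SHP2 sh2, and 10.18 and 9.89 with Ctrl shRNA, with SHP2 sh1 replicate 2 level with the other SHP2 arrays. ANAPC4 is a scaffold subunit of the anaphase-promoting complex, NUP133 a nuclear pore protein, SSX2IP a centrosomal protein and CAMSAP2 a protein of microtubule minus ends. The median of these 7 genes was -1.56 on the replicate 2 arrays and -0.54 on the other 3 SHP2 arrays.

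The remaining chromatin proteins were PCGF6, a Polycomb subunit, NUCKS1 and YEATS4, a reader of acetylated histones. YEATS4 was at 7.57 and 5.95 with SHP2 sh1, 7.34, 5.32 and 7.58 with SHP2 sh2, and 8.0 and 8.16 with Ctrl shRNA, and its replicate 2 arrays lay 1.87 below its other SHP2 arrays. PCGF6 was at 8.15 and 6.41 with SHP2 sh1, 8.15, 7.32 and 8.26 with SHP2 sh2, and 8.85 and 8.86 with Ctrl shRNA. It was the only one of the 6 genes with the largest differences between hairpins that was higher with SHP2 sh2 than with SHP2 sh1. Its second probe had a gap of 0.07 and a difference of -0.32.

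The transcription factors were FOXP2, ZNF562, ZNF639, ZNF426, ZNF121, ZNF791, ZNF480, NFYB, RFXAP, TBL1X and POGK, and 0 of these 11 had replicate 2 arrays more than 1 below the other SHP2 arrays. NFYB, a subunit of the factor that binds the CCAAT box, was at 5.83 and 5.61 with SHP2 sh1, 5.83, 5.38 and 5.83 with SHP2 sh2, and 6.25 and 6.33 with Ctrl shRNA. RFXAP, a subunit of the activator of MHC class II genes, was at 5.57 and 5.77 with SHP2 sh1, 5.79, 5.74 and 5.79 with SHP2 sh2, and 6.28 and 6.40 with Ctrl shRNA. The 5 SHP2 values of RFXAP spanned 0.23, less than its gap of 0.48, and those of NFYB 0.45. TBL1X is an exchange factor of corepressor complexes. Genes named ZNF made up 6 of the 100, of 494 measured, and 50 of the 494 (10.1%) had a gap above 0 and 27 were higher on all 5 SHP2 arrays, beside 7.17% and 8.13% of all genes. That list was put together after its values had been seen.

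Transcription machinery, RNA processing and translation supplied GTF2F2 and ELOF1, which act with RNA polymerase II, TAF1D and POLR1D, which act with RNA polymerases I and III, CPSF4, a cleavage and polyadenylation factor, PUS7, a pseudouridine synthase, the RNA-binding proteins CIRBP and RBMS3, the ribosomal protein RPS15, and the snoRNAs SNORD114-2 and SNORD52. CIRBP, which is induced by mild cold, was at 7.80 and 8.12 with SHP2 sh1, 8.16, 8.06 and 7.50 with SHP2 sh2, and 8.78 and 8.81 with Ctrl shRNA, one of the genes for which the replicate 2 arrays were not the lowest. TAF1D was at 8.95 and 7.57 with SHP2 sh1, 8.93, 7.22 and 8.72 with SHP2 sh2, and 9.45 and 9.38 with Ctrl shRNA. SNORD52 was at 7.07 and 5.90 with SHP2 sh1, 7.07, 5.56 and 7.07 with SHP2 sh2, and 7.79 and 7.65 with Ctrl shRNA. In TAF1D and SNORD52 the replicate 2 mean differed by -1.47 and -1.33 from that of the other 3 SHP2 arrays, which lay close together. RBMS3, also in the list of YAP and TAZ targets, was at 8.18 and 8.08 with SHP2 sh1, 7.97, 7.48 and 7.70 with SHP2 sh2, and 8.65 and 8.55 with Ctrl shRNA, and 5 of the 22 genes of that list had a gap above 0, beside 7.17% of all genes. RPS15 was at 9.57 and 9.68 with SHP2 sh1, 9.62, 9.32 and 9.72 with SHP2 sh2, and 10.11 and 10.14 with Ctrl shRNA, but its second probe was dimmer and had a gap of -1.18, so the probes disagreed.

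Other ligands, receptors and signalling proteins were EPHA4, FZD3, TNFSF10, IRAK1BP1, STK32A and CASP2. EPHA4, an ephrin receptor, was at 7.79 and 7.87 with SHP2 sh1, 7.50, 7.27 and 6.87 with SHP2 sh2, and 8.37 and 8.69 with Ctrl shRNA, and was the 1 gene of 34 receptor tyrosine kinases and adaptors measured that had a gap above 0, beside 7.17% of all genes. Without SHP2 sh1 replicate 1 there were 4 of 34 (11.8%), beside 15.0% of all genes. TNFSF10, the death ligand TRAIL, was at 8.75 and 9.32 with SHP2 sh1, 9.26, 8.42 and 6.85 with SHP2 sh2, and 9.79 and 10.0 with Ctrl shRNA, lowest by far on SHP2 sh2 replicate 3. FZD3, a Wnt receptor, differed from control by -0.88 for SHP2 sh1 and by -0.79 for SHP2 sh2. STK32A, a kinase, differed by -1.21 for SHP2 sh1 and by -1.81 for SHP2 sh2. IRAK1BP1 modulates NF-kB signalling and CASP2 is an initiator caspase. The 12 ligands, receptors and signalling genes together had a median of -1.16 on the other 3 SHP2 arrays and of -1.24 on the replicate 2 arrays, and 9 of the 12 were lower on the replicate 2 arrays. PTPN22 (-2.37 on those and -1.17 on the other 3), FAM83B (-2.41 and -1.22) and STK32A (-2.16 and -1.18) were far lower there. Of the ERK output genes, 3 of 22 (13.6%) had a gap above 0, beside 7.17% of all genes, namely EPHA4, MYC (0.30) and SPHK1 (0.08). Without SHP2 sh1 replicate 1 the count was 8 of 22 (36.4%), beside 15.0% of all genes. Of the protein tyrosine phosphatases 8 of 31 (25.8%) had one, and 5 of 31 were higher on all 5 SHP2 arrays, beside 7.17% and 8.13% of all genes.

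Adhesion and matrix genes beyond those already given were TENM2, SLITRK6, FERMT1, NECTIN3, GLCE, TMPRSS11E and TMPRSS11A. TENM2, a teneurin of cell contacts, was at 9.09 and 9.23 with SHP2 sh1, 8.91, 8.98 and 8.09 with SHP2 sh2, and 9.86 and 10.48 with Ctrl shRNA, among the brightest genes of the set. SLITRK6, a membrane protein of neurons and epithelia, was at 8.31 and 7.24 with SHP2 sh1, 7.67, 5.85 and 6.70 with SHP2 sh2, and 8.99 and 8.77 with Ctrl shRNA and had the largest difference between the hairpins. FERMT1 encodes kindlin-1, an activator of integrins, NECTIN3 is a junctional adhesion protein and GLCE an epimerase of heparan sulfate synthesis. The serine proteases TMPRSS11A and TMPRSS11E lie near each other on chromosome 4 with 4 measured genes between them, of which only YTHDC1 (-0.48) and TMPRSS11B (0.33) differed by more than 0.25. TMPRSS11E was at 4.35 and 4.75 with SHP2 sh1, 4.53, 4.83 and 4.48 with SHP2 sh2, and 5.85 and 5.24 with Ctrl shRNA and TMPRSS11A at 4.67 and 4.17 with SHP2 sh1, 4.69, 4.23 and 4.67 with SHP2 sh2, and 5.07 and 5.45 with Ctrl shRNA, near the lower end of the scale, where little RNA is measured. The 12 adhesion, matrix and protease genes had a median of -1.16 on the other 3 SHP2 arrays and of -1.50 on the replicate 2 arrays. The lists of matrix genes and of integrins and laminins each had 1 gene with a gap above 0, of 30 and 22 measured, beside 7.17% of all genes, and that of epithelial keratins and junctions had 3 of 23. Each with 1 gene above 0 and none of the 100 genes were also the lists of class I antigen presentation (of 15 measured), cholesterol and fatty acid synthesis (of 25), lysosomal genes (of 23) and chaperones (of 21).

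NALCN, a sodium leak channel, and SLC16A7, a monocarboxylate transporter, joined KCNT2 as membrane channels and carriers. NALCN was at 5.80 and 5.44 with SHP2 sh1, 5.76, 5.81 and 5.59 with SHP2 sh2, and 7.02 and 6.41 with Ctrl shRNA. SLC16A7 was at 7.93 and 6.80 with SHP2 sh1, 7.64, 6.57 and 7.91 with SHP2 sh2, and 8.32 and 8.80 with Ctrl shRNA. NALCN varied little among SHP2 arrays, while SLC16A7 was lowest on the replicate 2 arrays.

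Metabolic and mitochondrial genes were GPAM, PANK2, CTPS2, PRPS2, PSAT1, MCUB, COX18, GUF1, DHTKD1, GNPNAT1 and ACADSB, and in 6 of these 11 the replicate 2 arrays were more than 1 below the other SHP2 arrays. PANK2, a kinase of coenzyme A synthesis, was at 6.47 and 4.5 with SHP2 sh1, 6.07, 4.98 and 5.94 with SHP2 sh2, and 7.12 and 7.02 with Ctrl shRNA, whereas its second probe had a difference of -0.01. GUF1, a mitochondrial translation factor, was at 7.86 and 6.46 with SHP2 sh1, 7.37, 5.70 and 8.0 with SHP2 sh2, and 8.43 and 8.62 with Ctrl shRNA. PSAT1, an enzyme of serine synthesis, was at 6.23 and 5.69 with SHP2 sh1, 6.20, 6.22 and 6.23 with SHP2 sh2, and 6.92 and 6.71 with Ctrl shRNA and, with STC2, came from the list of amino acid and endoplasmic reticulum stress genes, where 5 of 24 had a gap above 0, beside 7.17% of all genes. ACADSB, a dehydrogenase of branched-chain amino acid breakdown, was at 5.46 and 5.30 with SHP2 sh1, 5.50, 5.31 and 5.33 with SHP2 sh2, and 5.87 and 5.96 with Ctrl shRNA, with RPS15 the shallowest difference of the 100 genes. CTPS2 makes CTP, PRPS2 makes phosphoribosyl pyrophosphate, GNPNAT1 acts in the synthesis of UDP-N-acetylglucosamine, MCUB is a subunit of the mitochondrial calcium uniporter, and COX18 helps to insert a cytochrome oxidase subunit. DHTKD1, an enzyme of lysine breakdown, was at 7.27 and 7.15 with SHP2 sh1, 7.08, 6.84 and 7.16 with SHP2 sh2, and 7.71 and 9.39 with Ctrl shRNA. The median of these 11 genes was -1.66 on the replicate 2 arrays and -0.71 on the other 3.

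Protein modification and trafficking genes were NAA16, OTUD1, DCAF16, KLHL42, KBTBD7, RHOBTB1, RABGGTB, ZDHHC21, AP1S3 and ANXA3. RABGGTB, a subunit of the enzyme that adds lipid anchors to RAB proteins, was at 8.15 and 5.58 with SHP2 sh1, 8.08, 5.44 and 7.93 with SHP2 sh2, and 8.57 and 8.68 with Ctrl shRNA, the largest split of the 100 genes between the replicate 2 arrays and the rest. OTUD1, a deubiquitinase, was at 7.74 and 7.08 with SHP2 sh1, 6.84, 6.43 and 7.02 with SHP2 sh2, and 8.38 and 8.33 with Ctrl shRNA. Each of its SHP2 sh2 values was below each of its SHP2 sh1 values. DCAF16, KLHL42, KBTBD7 and RHOBTB1 are linked to cullin ubiquitin ligases, ZDHHC21 is a palmitoyltransferase, AP1S3 a subunit of a clathrin adaptor and ANXA3 an annexin. The last 7 genes, FSIP2, TMEM255B, ABTB3, NCKAP5, KIAA1586, C5orf34 and PM20D2, had differences from -1.73 to -0.76.

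Read in the absence of the outlying arrays, the median difference of the set was smaller. The plain mean of the other 3 SHP2 arrays differed from the control mean by a median of -0.71, and by -0.67 when each hairpin was given equal weight. By the plain mean, 27 of the 100 genes were more than 1 below the controls, beside 0.304% of all genes. These were KCNT2, FOXP2, CDH6, HHIP, ADAMTS6, FSIP2, SNORD114-2, NRG1, DSEL, PTPN22, UHRF1, FAM83B, H2AC15, TENM2, OTUD1, H2BC14, TMEM255B, ANXA3, EPHA4, ABTB3, COL24A1, NCKAP5, SLITRK6, TNFSF10, DHTKD1, TMPRSS11E and STK32A. Genes lay close to the cut at 1 on both sides, such as H2AC15 (-1.03) inside it and NALCN (-0.998) outside it. On the replicate 2 arrays 77 genes were more than 1 below the controls, beside 15.1% of all genes. The replicate 2 mean was below that of the other 3 in 86 of the 100 genes, against 42.2% of all genes, and more than 1 below it in 27, against 13%. In 59 genes both replicate 2 arrays were below all the other 3, against 29.3%, and in 4 both were above them, against 41.0%. The rule capped the replicate 2 values too, so genes raised on those arrays could hardly enter the set. These shares therefore follow in part from how the genes were chosen. The deepest splits were those of RABGGTB (-2.54), YEATS4 (-1.87), SMC4 (-1.83), GEN1 (-1.71) and GUF1 (-1.66), and the highest values in the other direction were those of NCKAP5 (0.82), TNFSF10 (0.59) and FOXP2 (0.56). What set the replicate 2 arrays apart was not tested.

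**Figure D3:**
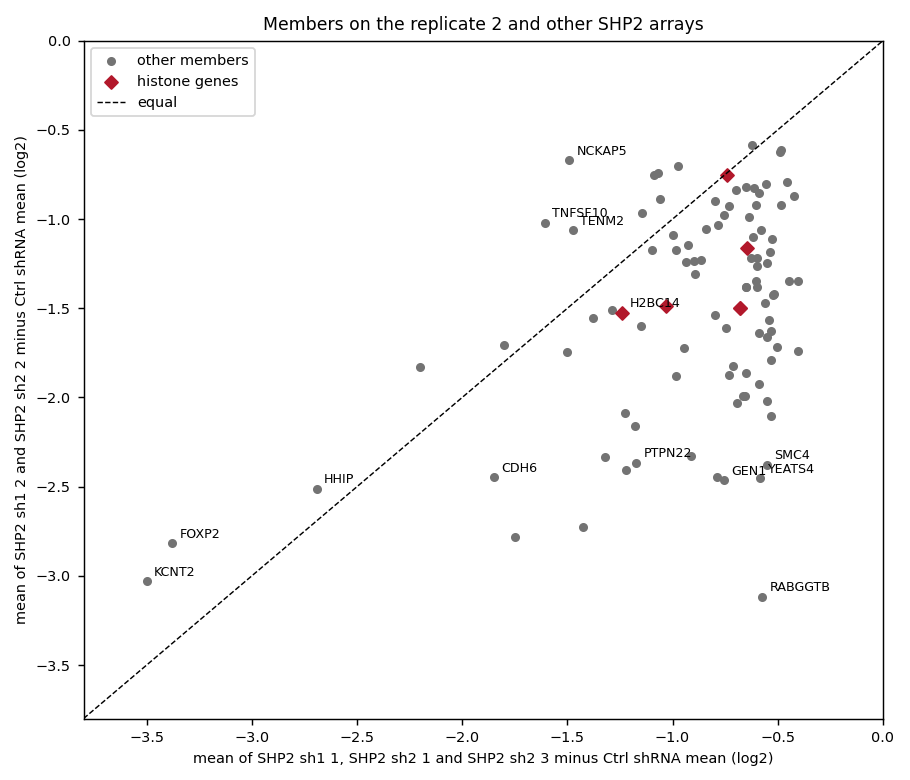
Mean log2 difference from Ctrl shRNA on the SHP2 sh1 and SHP2 sh2 replicate 2 arrays (vertical axis) against that on the other 3 SHP2 arrays (horizontal axis), 1 point per gene, histones as red diamonds. Most of the 100 points lie below the diagonal, where the replicate 2 arrays were lower, with RABGGTB the farthest.

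Since the highest SHP2 value set the gap, 1 array decided many of the ranks. SHP2 sh1 replicate 1 held the highest of the 5 SHP2 values, alone or tied, in 60 of the 100 genes, beside 25.3% of all genes. SHP2 sh2 replicate 2 held the lowest in 63, beside 31.7%. Ties were counted for the array listed first. Where SHP2 sh1 replicate 1 was tied, another array would have set the same gap. In 20 genes at least 2 SHP2 arrays shared exactly the same highest value, against 1.78% of all genes, and in SNORD52, H2AC8, CPSF4 and NUP133 3 arrays did. Without SHP2 sh1 replicate 1, 2756 genes (15.0%) had a gap above 0, and 32 of the 100 remained among the 100 of largest gap. Each control mattered too, since without Ctrl shRNA replicate 1 there were 2423 genes with a gap above 0 and 38 of the 100 remained, and without Ctrl shRNA replicate 2 there were 2295 and 50 remained. Gene lists were recounted without SHP2 sh1 replicate 1, a choice made after seeing the data. Among interferon-stimulated genes 32 of 42 (76.2%) then had a gap above 0, against 2 of 42 with all arrays, and among hypoxia and glycolysis genes 16 of 24, against 0 of 24. Class I antigen presentation then had 6 of 15, cholesterol and fatty acid synthesis 8 of 25, integrins and laminins 7 of 22, matrix genes 3 of 30, and protein tyrosine phosphatases 11 of 31, beside 15.0% of all genes. Double-strand break repair had 13 of 20, G1/S genes 11 of 30 and G2/M genes 8 of 39. Inflammatory cytokine and NF-kB genes had 1 of 24 without it and 0 of 24 with all arrays.

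Gaps were close together at the border. The last 5 genes inside were NUP133, PM20D2, ACADSB, CAMSAP2 and GEN1, with gaps of 0.38, 0.38, 0.37, 0.37 and 0.37. Just outside were WDR35, ZNF22, ANP32E, TPT1 and MYO10, with gaps between 0.36 and 0.37. Only 9 of the 100 genes had a gap above 1 and 41 one above 0.5.

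**Figure D4:**
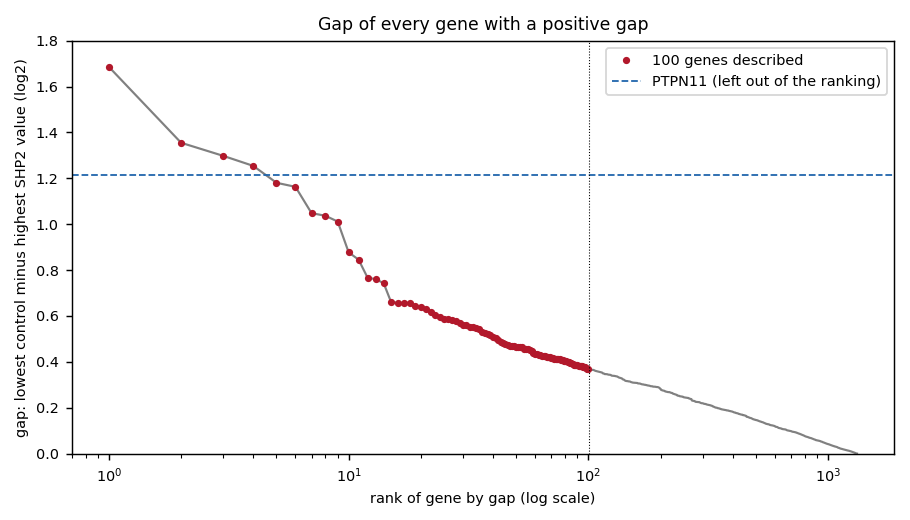
Gap on the log2 scale (vertical axis) by rank (horizontal axis, log scale) for every gene with a gap above 0, the 100 genes in red and the gap of PTPN11, 1.21, as a dashed line. Of the 100 genes 9 exceed 1, and the curve passes the border at 0.37 without a step.

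The remaining comparison is between the SHP2 hairpins. Comparing SHP2 sh2 with SHP2 sh1 in limma over 18417 genes, 0 genes (0% of those tested) passed an adjusted p of 0.05, and of the 100 genes 0 did, each with an adjusted p of 1. At an unadjusted p under 0.05 there were 116 genes (0.63%), and of the 100 genes 1, EPHA4, which was 0.61 lower with SHP2 sh2 (SE 0.25, unadjusted p = 0.0437, adjusted p = 1 in limma). The rule capped the values of both hairpins and so was not blind to this comparison. SHP2 sh2 had the lower mean in 64 of the 100 genes, beside 44.7% of all genes, but that direction rested on single arrays. The median difference of the 100 genes, SHP2 sh2 minus SHP2 sh1, was -0.06 with all arrays, 0.22 without SHP2 sh1 replicate 1, 0.14 without SHP2 sh2 replicate 2 and -0.38 without SHP2 sh1 replicate 2. Among fits with at least 2 arrays of each SHP2 hairpin, the lowest adjusted p of any of the 100 genes was 0.876 in limma. That fit used the replicate number as a block. The largest differences, SHP2 sh2 minus SHP2 sh1, were -1.03 for SLITRK6, -0.86 for TNFSF10, -0.71 for H2AC15, -0.70 for H2BC14, -0.65 for OTUD1 and 0.63 for PCGF6. A p that misses the threshold does not show that the hairpins act alike, and with 2 and 3 arrays the number of arrays limits the precision. Within each hairpin the replicate 2 array stood apart, which widens the spread that limma uses and also limits the precision.

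In control cells the 100 genes were expressed above the middle of the scale. Their Ctrl shRNA level had a median of 8.09, against 6.98 over all genes, and 86 were above 7, against 49.6%. None was under 5, where 14.6% of all genes lay, and a gene near the bottom of the scale has no room for a wide gap. The highest control means were those of H4C14 and H4C15 (10.85), H2BC14 (10.74) and TENM2 (10.17), and the lowest those of TMPRSS11A, TMPRSS11E, ACADSB and NFYB. The genes were also long, with a median span of 48.3 kb against 24.5 kb over all genes, and 11 exceeded 200 kb, against 7.11%. The long ones were KCNT2, FOXP2, ADAMTS6, NRG1, TENM2, NALCN, ABTB3, COL24A1, NCKAP5, TBL1X and RBMS3. By type, 98 were protein-coding and 2 were snoRNAs.

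Several members were neighbours on a chromosome. H2BC14 and H2AC15 on chromosome 6 and ZNF426 and ZNF121 on chromosome 19 had no measured gene between them. Between ZNF121 and ZNF562 lay ZNF561, with a difference of -0.49 and a gap of 0.23, and between KBTBD7 and NAA16 on chromosome 13 lay MTRF1, with a difference of -0.87 and a gap of 0.10. ZNF121 was at 7.97 and 7.48 with SHP2 sh1, 8.16, 7.38 and 8.02 with SHP2 sh2, and 8.72 and 8.58 with Ctrl shRNA, ZNF562 at 7.08 and 6.38 with SHP2 sh1, 6.87, 6.32 and 6.34 with SHP2 sh2, and 7.63 and 7.69 with Ctrl shRNA, and ZNF426 at 7.03 and 6.82 with SHP2 sh1, 7.03, 6.37 and 6.32 with SHP2 sh2, and 7.48 and 7.57 with Ctrl shRNA. KBTBD7 was at 6.27 and 6.23 with SHP2 sh1, 5.89, 5.77 and 6.40 with SHP2 sh2, and 6.78 and 7.56 with Ctrl shRNA. Chromosomes 1, 6 and 19 held 12, 10 and 10 of the genes, and chromosomes 16, 21, 22 and Y held 0. Chromosome 13, singled out after its values were seen, held 8 of its 317 measured genes (2.52%): NAA16, NALCN, TMEM255B, RFXAP, SLITRK6, GTF2F2, POLR1D and KBTBD7. Over chromosome 13, 51 genes (16.1%) had a gap above 0, beside 7.17% of all genes, and the median difference was -0.06, against 0.08.

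For 9 of the 100 genes the array carried more than 1 probe with that gene's symbol alone. The other probes of NRG1, VWDE, TMPRSS11E and PCGF6 also had a gap above 0, at 0.44, 0.38, 0.35 and 0.07, and so did 1 of the other probes of FSIP2, at 0.38, but not the other, at -0.10. The other probes of UHRF1, PANK2 and RPS15 had gaps of -0.85, -0.28 and -1.18, and that of NUCKS1 a gap of 0. The second UHRF1 probe was dimmer and had a difference of 0.22, so the lower UHRF1 signal was read by 1 probe of 2.

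**Figure D5:**
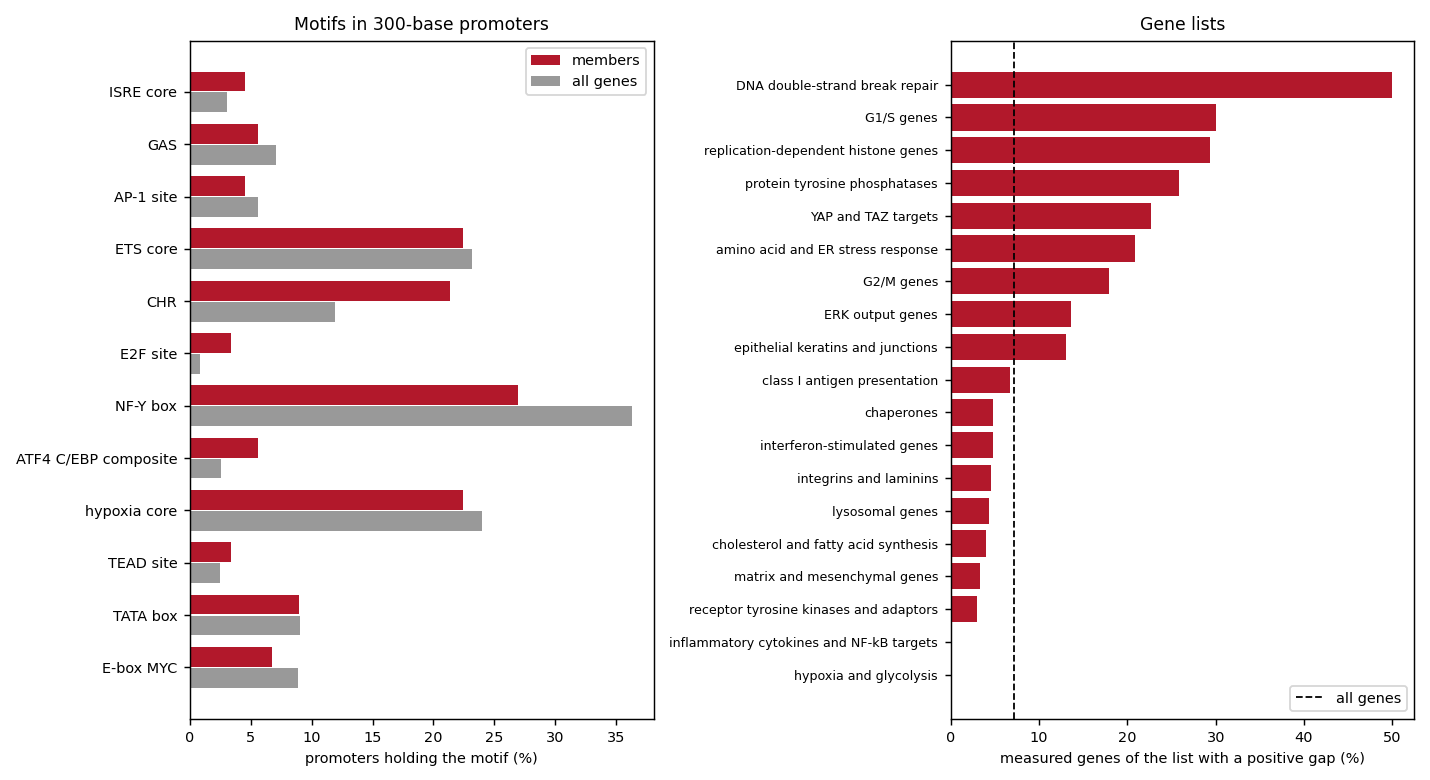
Left, percent of RefSeq promoters that hold each motif, in the 100 genes (red) and in all genes (grey), the NF-Y box being CCAAT. Right, percent of each list's measured genes with a gap above 0, with a dashed line at the 7.17% of all genes; double-strand break repair (50.0%), G1/S (30.0%) and histone genes (29.3%) have the highest shares, and the inflammatory and hypoxia lists none.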

How the data were processed

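The labels describe 7 arrays of RNA from SUM159 cells with doxycycline-inducible hairpins, 2 with SHP2 sh1, 3 with SHP2 sh2 and 2 with Ctrl shRNA. Before the authors deposited them, the log2 expression values had been made from the scanner files with the Bioconductor package oligo, whose version is not given in the sources used here. Its robust multi-array averaging removes background, equalises the probe distributions of the arrays by quantiles and combines the probes of a transcript. The deposited log2 values were used as given. Of 33297 probes, 19460 had 1 gene symbol, 1754 several and 12083 none listed in the platform annotation. Symbols were updated through the gene ID with RefSeq (GRCh38.p14), where 19429 matched. For the 769 genes with several probes, the probe of largest interquartile range over the 7 arrays was kept, and no dim gene was left out.

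The gap, group means and counts were computed in Python 3.11.15 with pandas 2.3.3. SHP2 sh2 was compared with SHP2 sh1 in limma 3.58.1 (R 4.3.3), with the 3 group means fitted over all 7 arrays, eBayes, two-sided tests and Benjamini-Hochberg adjustment over 18417 genes. The procedure was tested on simulated arrays. Their noise was independent between arrays, unlike that of the replicate 2 arrays of the SHP2 hairpins, which deviated together. No test was made between SHP2 hairpins and Ctrl shRNA, because that difference chose the 100 genes.

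Array values were named for the 20 genes of widest gap, the 5 on either side of the border, those in a gene list, the 6 with the largest difference between hairpins, the 4 brightest and 4 dimmest in controls, those with several probes and neighbours on a chromosome. Values of other genes were given after they had been seen. The 100 genes and all gene lists were chosen with earlier results of these data known. Alternatives were another probe per gene, other normalizations, a filter on dim genes (mean log2 value of at least 5), each array left out, both replicate 2 arrays left out, the replicate number as a block, eBayes with a trend and a fit of the SHP2 arrays only. Counts per gene list without some arrays were added after seeing the data. All 7 value columns were used.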

Additional observations from a re-analysis of the deposited data

How the results depend on the processing

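Which genes were in the set depended on single arrays. Leaving out each array in turn, between 1374 and 2756 genes had a gap above 0, against 1321 with all arrays, and between 32 and 99 of the 100 genes remained among the 100 of largest gap. The fewest remained without SHP2 sh1 replicate 1 (32), Ctrl shRNA replicate 1 (38) and Ctrl shRNA replicate 2 (50). Leaving out both replicate 2 SHP2 arrays kept 92, and other probes, normalizations or the filter on dim genes kept 83 to 98. The median difference of the 100 genes ran from -1.15 to -0.84 with 1 array left out, was -0.67 without both replicate 2 SHP2 arrays, and -1.01 with all. Every one of the 100 genes stayed below its control mean under each other probe choice and normalization and with each array left out, the 3 that failed the filter on dim genes aside. With arrays left out this had to hold, because every SHP2 value of these genes lay below both control values. The replicate numbers were treated as names, since same-numbered SHP2 and Ctrl shRNA arrays did not deviate together (correlations of -0.06 to 0.02), although those of the SHP2 hairpins did (0.62 and 0.85). That reason does not cover the comparison of the hairpins, so its fit with a block is given below. Deviations were taken from group means, so in a group of 2 arrays those of replicates 1 and 2 mirror each other. The 0.62 of replicate 1 is therefore not independent of the 0.85 of replicate 2. With the replicate number as a block the median difference was -1.06 and the count of genes between the hairpins stayed at 0 in limma. At an unadjusted p under 0.05 there were 468 genes, 4 of them of the 100, against 116 and 1 without the block. The count of genes between the hairpins was 0 in every limma fit that kept at least 2 arrays of each SHP2 hairpin. In those fits 65 to 468 genes were at an unadjusted p under 0.05. Of 669 values of 48 named genes under the alternatives, 649 differed by less than the spread between replicates and 0 changed sign. The sign could not change where arrays were only left out. No array's depth can be given, and 2 or 3 arrays per group limit the precision.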
